A study of Mus musculus with 16 samples.

Results

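The 8 mammary tumours of mice given sonidegib, alone or with an antibody against PD-L1, were compared with the 8 tumours of mice given no sonidegib. The 16 tumours are all those of the series. Tumours of MMTV-PyMT donor mice aged 12 weeks, in which the mammary tumour virus promoter drives the polyomavirus middle T oncogene, had been reimplanted into mammary fat pad 4 of FVB mice. Treatment lasted 28 days. There were 4 tumours under vehicle, 4 under the antibody (5 mg/kg, given 2 times weekly), 4 under sonidegib (20 mg/kg daily) and 4 under both agents at those doses, called the combination here. The tumours were divided by treatment label alone, and the question was what sonidegib changed in the RNA of whole tumours once the effect of the antibody was allowed for. The labels do not say whether tumours of a group came from separate donors, so p-values measure the spread between these samples. The libraries without sonidegib carry the numbers 1 to 8 and those with it 9 to 16, so library order and sonidegib cannot be told apart.

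Sonidegib binds Smoothened (Smo), the membrane protein that relays Hedgehog signals. Without a Hedgehog ligand, the receptor Patched 1 (Ptch1) keeps Smo silent. Ligand binding frees Smo, which moves into the primary cilium and lets Gli transcription factors switch on target genes, Ptch1 and Gli1 among them. PD-L1 (gene Cd274) on tumour and myeloid cells restrains T cells through the receptor PD-1 (Pdcd1). In mammary tumours Hedgehog ligands are known for signalling from the epithelium to fibroblasts and macrophages as well as within the epithelium.

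Expression was given as FPKM, fragments scaled to transcript length and to the mapped total, which can be compared between genes. Of 55146 genes, 15105 reached 1 FPKM in at least 4 libraries and were tested. The fold scale throughout is log2(FPKM + 1), which understates changes of genes near 1 FPKM. The estimated depth was 34.7 to 59.6 M fragments a library. Vehicle 3 stood apart, with 11361 genes at 1 FPKM or more against 13107 to 14784 elsewhere and a median log2 deviation of -0.76 against -0.13 to 0.20. The epithelial keratins Krt8 (172 to 697 FPKM) and Krt18 (158 to 760) and the adhesion molecule Epcam (83.8 to 423) were present in all 16 libraries, as the label of a mammary tumour implies. Of 16 B and plasma cell genes 4 were tested, with 1 higher at an unadjusted p under 0.05 (16% among all genes), 0 called by limma and a median 0.364 above that of all genes. Cd79a, a part of the B cell receptor, reached at most 0.0921 FPKM, while Jchain, a gene of antibody-secreting cells, was at 4.08, 5.96 and 8.28 in combination 2 to 4 and at most 0.899 in the other 13 libraries (exact permutation p = 0.0800, adjusted p = 0.592). In whole tumours, fewer cells of a type and less RNA per cell cannot be told apart.

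Across both antibody arms, 6 genes rose with sonidegib and 0 fell (limma, adjusted p under 0.05), which is 0.0397% of the 15105 genes tested. The 6 are Alox5ap and Ccl8, which serve inflammatory signalling, Ly6c1, a surface protein of monocytes and endothelium, Dram1, a p53-induced gene of lysosomes and autophagy, Ppp1r1b, and the noncoding RNA AY036118. At an unadjusted p under 0.05 there were 2876 genes (19%), 2415 higher (16%) and 461 lower (3.05%). The median gene was itself 0.147 higher, and 10429 genes (69%) had a log2 change above 0. Without vehicle 3 the median was 0.0460. After quantile normalization the median moved to -0.00465 and after median-of-ratios scaling to 0.0112, and either scaling left AY036118 as the only call.

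Alox5ap encodes FLAP, the membrane protein that hands arachidonic acid to 5-lipoxygenase for leukotriene synthesis. It was at 3.62, 5, 2.42 and 5.09 FPKM in the vehicle tumours and at 2.83, 4.47, 4.48 and 5 with anti-PD-L1. With sonidegib it was at 16.2, 5.92, 12.9 and 11, and with the combination at 7.28, 12.9, 13.8 and 12.8. All 8 sonidegib tumours lay above all 8 others. The means were 4.12 ± 1.04 and 11.6 ± 3.42 FPKM (SD, n = 8), a log2 difference of 1.27 (SE 0.20; limma, adjusted p = 0.0249). The difference was 1.27 both without and with the antibody.

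Ccl8 encodes a chemokine that draws monocytes and other leukocytes. It was at 8.27, 9.42, 4.98 and 2.64 FPKM with vehicle and at 16.4, 32, 12.9 and 18 with anti-PD-L1. With sonidegib it was at 27.8, 6.77, 27.5 and 34.6, and with the combination at 57.8, 63.2, 75.5 and 95.7. Sonidegib 2 lay within the vehicle range, the other sonidegib tumours lay above all vehicle tumours, and the 4 combination tumours lay above the other 12. The log2 difference was 1.78 (SE 0.29; limma, adjusted p = 0.0351), with 1.69 in the arm without antibody and 1.88 in the arm with it.

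Ly6c1 was at 3.53, 2.77, 1.96 and 1.91 FPKM with vehicle and at 5.43, 7.89, 2.96 and 2.65 with anti-PD-L1. It was at 8.35, 3.09, 5.94 and 6.52 with sonidegib and at 11.1, 14.6, 19.8 and 23.4 with the combination. The combination tumours were again the highest, while sonidegib and anti-PD-L1 tumours overlapped. The log2 difference was 1.33 (SE 0.23; limma, adjusted p = 0.0493), with 0.94 and 1.71 in the arms without and with the antibody. The near-identical neighbour Ly6c2, with which reads may be shared, differed by 0.71 (adjusted p = 0.185). Its 3 highest values, 4.08, 6.4 and 6.44 FPKM, were combination tumours 2 to 4.

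Dram1 was at 0.358 to 0.863 FPKM with vehicle and 0.861 to 1.39 with anti-PD-L1. It was at 3.69, 1.23, 2.66 and 4.53 with sonidegib and at 1.61, 4.25, 3.63 and 2.47 with the combination. Sonidegib 2 overlapped the anti-PD-L1 tumours, and the other 7 sonidegib or combination tumours exceeded all 8 others. The log2 difference was 1.06 (SE 0.18; limma, adjusted p = 0.0493). Ppp1r1b encodes DARPP-32, an inhibitor of protein phosphatase 1 when phosphorylated. It ranged from 0.1 to 0.844 FPKM (median 0.391) without sonidegib and from 0.269 to 5.1 (median 3.17) with it. Combination 1, at 0.269, was the single sonidegib-treated tumour below 1.52 FPKM. The log2 difference was 1.43 (SE 0.26; limma, adjusted p = 0.0493).

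AY036118 had the largest change and the least secure identity. It was listed under 0.001 FPKM in 7 of 8 tumours without sonidegib and at 215 FPKM in vehicle 3. It was at 1501, 264, 867 and 2854 FPKM with sonidegib and at 2708, 1890.1, 3632 and 2495 with the combination. The log2 difference was 9.69 (SE 1.08; limma, adjusted p = 0.00684). The gene (chr17:39847113-39848035, minus strand, GRCm38) lies within the ribosomal RNA gene CT010467.1 on its own strand and opposite Gm42418, so the reads cannot be given to it alone. Values so near 0 can be failed estimates of the assignment between overlapping genes. Another RNA of ribosomal type, Gm26917, ranged from 3858 to 17577 FPKM without sonidegib and from 1747 to 9178 with it (log2 difference -1.19, adjusted p = 0.159). The labels name both polyadenylated RNA and depletion of ribosomal RNA, a conflict that was not resolved.

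**Figure D1:**
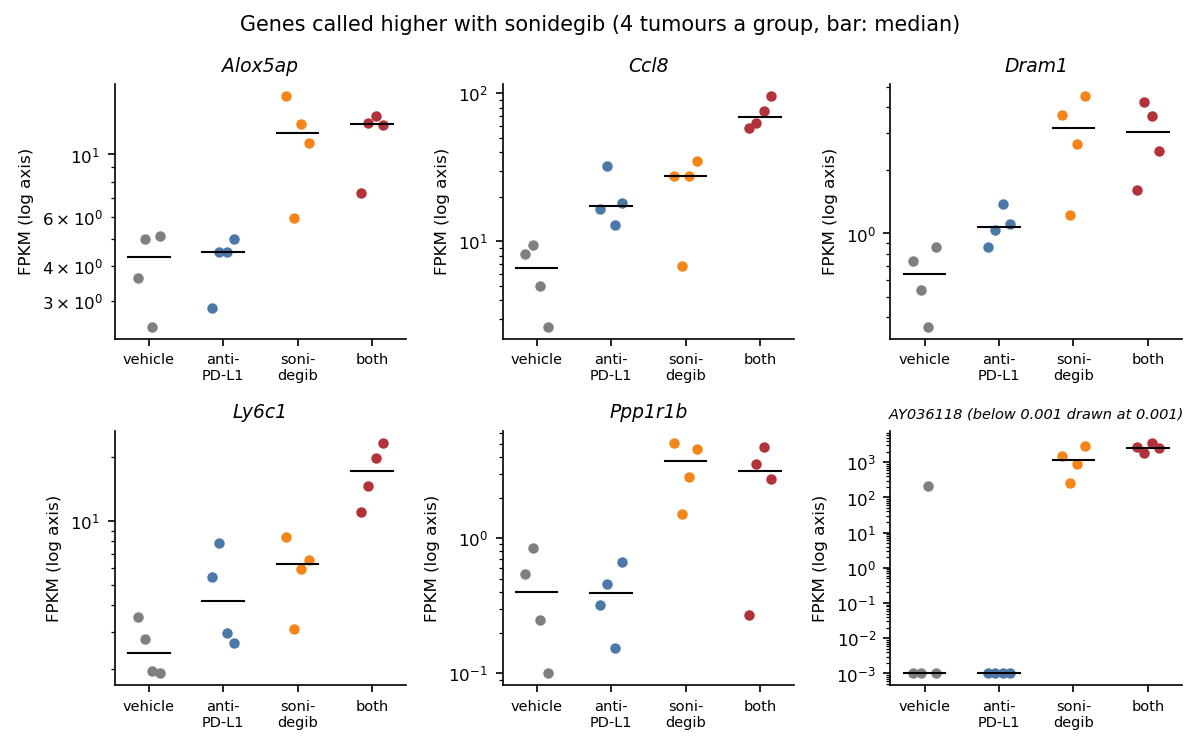
FPKM in each of the 16 tumours (points, log axis) for the 6 genes that rose with sonidegib, by treatment group, with the median of each group as a bar. Alox5ap separates the 8 tumours with sonidegib from the 8 without, Ccl8 and Ly6c1 are highest with the combination, and combination 1 (first point of its group) is low for Ppp1r1b.

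The other 5 genes lie on GRCm38 at chr5:149264767-149288153 (Alox5ap, plus strand), chr11:82115185-82116799 (Ccl8, plus), chr15:75044018-75048830 (Ly6c1, minus), chr10:88322804-88379080 (Dram1, minus) and chr11:98348404-98357796 (Ppp1r1b, plus). Alox5ap and Ppp1r1b overlap annotated RNAs on the opposite strand. Promoter windows of RefSeq (GRCm38.p6, 250 bases before to 50 after the start) were at hand for Ccl8, Ly6c1 and Dram1 among them, and are shown because these are the genes that rose. That of Ptch1, a target gene of the Hedgehog pathway, is shown beside them. Capitals mark matches to a TATA box (TATAAA), to a PU.1 site (GAGGAAGT), to a GLI site (GACCACCCA) or to the interferon-stimulated response element, sought on both strands.
Ccl8 promoter, chr11:82114935-82115234, plus strand: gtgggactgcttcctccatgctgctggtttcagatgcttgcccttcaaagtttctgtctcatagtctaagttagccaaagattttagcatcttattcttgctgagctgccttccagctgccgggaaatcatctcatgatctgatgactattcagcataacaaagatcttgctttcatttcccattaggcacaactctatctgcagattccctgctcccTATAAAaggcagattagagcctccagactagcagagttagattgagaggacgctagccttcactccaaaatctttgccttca
Ly6c1 promoter, chr15:75048788-75049087, minus strand: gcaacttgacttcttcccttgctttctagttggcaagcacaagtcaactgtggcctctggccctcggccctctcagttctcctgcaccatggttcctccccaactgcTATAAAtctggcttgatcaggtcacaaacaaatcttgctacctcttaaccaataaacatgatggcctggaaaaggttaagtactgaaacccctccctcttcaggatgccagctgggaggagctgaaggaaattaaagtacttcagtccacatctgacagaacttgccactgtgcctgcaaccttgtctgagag
Dram1 promoter, chr10:88357026-88357325, minus strand: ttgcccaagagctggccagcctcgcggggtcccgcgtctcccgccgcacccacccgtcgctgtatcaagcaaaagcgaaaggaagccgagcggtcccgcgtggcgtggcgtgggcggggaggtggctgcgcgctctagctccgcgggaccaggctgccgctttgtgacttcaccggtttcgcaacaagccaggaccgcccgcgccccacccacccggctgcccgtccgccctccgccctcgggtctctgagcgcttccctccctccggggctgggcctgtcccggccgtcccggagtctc
Ptch1 promoter, chr13:63565686-63565985, minus strand: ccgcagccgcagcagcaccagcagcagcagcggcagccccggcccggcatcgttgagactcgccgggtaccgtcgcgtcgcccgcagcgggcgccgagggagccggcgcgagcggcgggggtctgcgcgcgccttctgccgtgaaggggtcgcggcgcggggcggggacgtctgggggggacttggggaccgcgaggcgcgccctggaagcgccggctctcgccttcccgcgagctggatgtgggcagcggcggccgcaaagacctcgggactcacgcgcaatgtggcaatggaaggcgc

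Ccl8 carries TATAAA 32 bases before its start and Ly6c1 143 bases before the start of this window's transcript. The windows of Dram1 and Ptch1 hold none of the 4 motifs. Both lie inside the annotated gene, which begins on the minus strand at 88379080 for Dram1 and 63573598 for Ptch1. The sequence before those positions was not searched. A second Ly6c1 window (chr15:75048614-75048913) holds the PU.1 letters 127 bases before its start. Of 32851 windows of this length in the table, 13.6% hold TATAAA, 3.20% the PU.1 letters, 3.44% the interferon element and 0.253% the GLI letters. These matches are descriptions of the letters and show no binding.

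The calls depended on the tumours and settings used. With the GC slope of each library (how its values shift with the GC content of genes) as a covariate, 0 genes were called by limma and 961 had an unadjusted p under 0.05, while the log2 differences were 1.02 for Alox5ap, 1.65 for Ccl8 and 9.93 for AY036118. The GC slope averaged 0.967 ± 2.54 without sonidegib and -0.967 ± 2.48 with it (exact permutation p = 0.0890, adjusted 0.181 over 4 library measures). Vehicle 1 to 3 had the highest slopes of the 16 libraries (4.55, 3.32 and 3.69), and vehicle 4 was at -0.513. The estimated depths of vehicle 1 to 3, 38.1, 35.0 and 34.7 M fragments, were among the lowest, with sonidegib 4 at 36.4. Genes higher at an unadjusted p under 0.05 had a median GC content of 46.2% and a median length of 2088.5 bases, against 55.8% and 4030 for the lower ones and 49.3% and 2908 for all tested genes. The part of GC content in the differences was not tested beyond these fits.

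The next genes by p were higher with sonidegib and narrowly missed the threshold. The adipokine Rarres2 (chemerin) was at 2.12 to 9.2 FPKM (median 4.27) without and 4.17 to 37.3 (median 12.6) with sonidegib, a log2 difference of 1.48 (limma, adjusted p = 0.0509). Wfdc2, a secreted whey-acidic-protein family member, was at 2.35 to 21.8 (median 8.52) and 16.4 to 54.9 (median 43.6), a difference of 2.07 (adjusted p = 0.0509). Sonidegib 2 lay within the range without sonidegib for both genes and combination 1 for Wfdc2, and the other tumours with sonidegib lay above it. The myeloid serine protease gene Prtn3 differed by 1.49 (adjusted p = 0.0509) and the macrophage-secreted Wfdc17 by 1.49 (0.0528). Batf, a transcription factor of T cells and dendritic cells, was at 0.194 to 0.797 FPKM without sonidegib. It was at 2.61, 0.553, 2.76 and 2.84 with sonidegib and at 0.742, 2.27, 1.94 and 2.04 with the combination (log2 difference 0.97, adjusted p = 0.0553). Sonidegib 2 and combination 1 were the 2 tumours of 8 that stayed in the range without the drug. Gimap9, a lymphocyte GTPase gene, differed by 1.10, and the ribosomal pseudogene Rpl30-ps9, whose reads can belong to Rpl30, by 1.18 (adjusted p = 0.0553 for both).

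No gene was called lower (461 at an unadjusted p under 0.05), and the 12 with the lowest p were all at adjusted p = 0.117 to 0.151 by limma. Fasn, the fatty acid synthase, was at 57.2, 75.4, 45.6 and 51.7 FPKM with vehicle and 61, 41.7, 50.5 and 58.7 with anti-PD-L1. It was at 24.6, 44.3, 27.8 and 26.8 with sonidegib and at 49.3, 22.4, 24.5 and 20.4 with the combination. Sonidegib 2 and combination 1 lay in the range without sonidegib and the other 6 below it (log2 difference -0.90, SE 0.20, adjusted p = 0.117). The receptor gene Notch1 was at 15.8 to 53.9 FPKM (median 23.8) without and 8.15 to 21.4 (median 10.9) with sonidegib (log2 difference -1.03, adjusted p = 0.131). Others of the 12 were the semaphorin receptor Plxnb1 (-0.79), the beta-catenin cofactor Bcl9l (-0.84), the kinase Sik1 (-0.83), the adhesion receptor Celsr2 (-1.01), the basement membrane proteoglycan Hspg2 (-0.79), integrin alpha 2 (Itga2, -0.83) and the AP-1 factor Fosl2 (-0.76). Zmiz1 (-0.86), L1cam (-0.88) and Ulk3 (-0.62) completed them. By complete separation of the groups, 18 genes (0.119%) had all 8 sonidegib tumours above all 8 others, among them Rpl30 (1.09), Cox6c (0.96), Mrpl27 (0.93) and Psme1 (0.65). The single gene with all 8 below (0.00662%) was Mapkbp1 (-0.40). Except for Alox5ap and AY036118, none of these was called.

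Hedgehog genes showed no call in either direction. Ptch1 was at 3.45, 4.5, 1.73 and 4.4 FPKM with vehicle and at 3.17, 3.86, 3.71 and 4.07 with anti-PD-L1. It was at 3.14, 3.46, 4.11 and 2.1 with sonidegib and at 3.29, 2.2, 2.15 and 2.66 with the combination. The tumours with and without sonidegib overlapped, and the log2 difference was -0.24 (SE 0.16, limma adjusted p = 0.413). All sonidegib tumours lay within the vehicle range. Combination 2 to 4 lay below all anti-PD-L1 tumours, and combination 1 stood among them. Smo, the target of the drug, had medians of 15.2 and 16.3 FPKM (log2 difference 0.01, SE 0.17, adjusted p = 0.987), and this sign turned after quantile normalization (-0.16) or median-of-ratios scaling (-0.18). Vehicle 2, at 27.3 FPKM, was the highest library for Smo.

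Gli1, the target gene most used as a readout of the pathway, was too low for the filter. Its values were 0.0155 to 0.278 FPKM without sonidegib (mean 0.115 ± 0.103, SD, n = 8) and 0.0166 to 0.324 with it (0.13 ± 0.1; exact permutation p = 0.778). The annotated gene Gli1 also overlaps Arhgap9 and Gm47200 on the other strand. Gli2, an activator, was at 0.0758 ± 0.0427 and 0.269 ± 0.264 FPKM (SD, n = 8 each; exact permutation p = 0.0653, adjusted p = 0.564), with its 4 highest values in sonidegib 1 and combination 2 to 4. The repressor Gli3 was at 0.294 ± 0.136 and 0.348 ± 0.124 (SD, n = 8 each; exact permutation p = 0.432). Hhip, a target and decoy receptor, reached at most 0.0133 FPKM, Shh 0.0216 and Ihh 0.0366 in any library.

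Of the 4 Hedgehog ligand and release genes tested, Scube1, whose secreted product helps release Hedgehog proteins, had the largest difference. It was at 2.84 to 14.6 FPKM (median 3.52) without sonidegib and 3.5 to 44 (median 12) with it, with combination 1 at 3.5 (log2 difference 1.20, SE 0.45, limma adjusted p = 0.192). The coreceptors Cdon (-0.21), Boc (-0.22) and Gas1 (-0.03) and the inhibitor Sufu (-0.08) had small differences. Of 8 Hedgehog target genes tested, 0 were called and 0 had an unadjusted p under 0.05, and the median of -0.16 differed from that of all genes by -0.305. Relative to all genes it was -0.220 in the arm without antibody and -0.356 in the arm with it. A negative interaction, a lower sonidegib difference with antibody than without, had an unadjusted p under 0.05 in 2 of the 8 (9.4% among all genes). The count was 1 without vehicle 3 and 1 after quantile normalization. Cyclin D1 (Ccnd1) among them was at 24 to 70.6 FPKM without and 20.5 to 56.3 with sonidegib (log2 difference -0.48, adjusted p = 0.295). Its 3 values in combination 2 to 4 were 20.5, 26.7 and 20.9 FPKM, all below 7 of the 8 libraries without sonidegib, and 2 of them also below vehicle 3 (24).

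**Figure D2:**
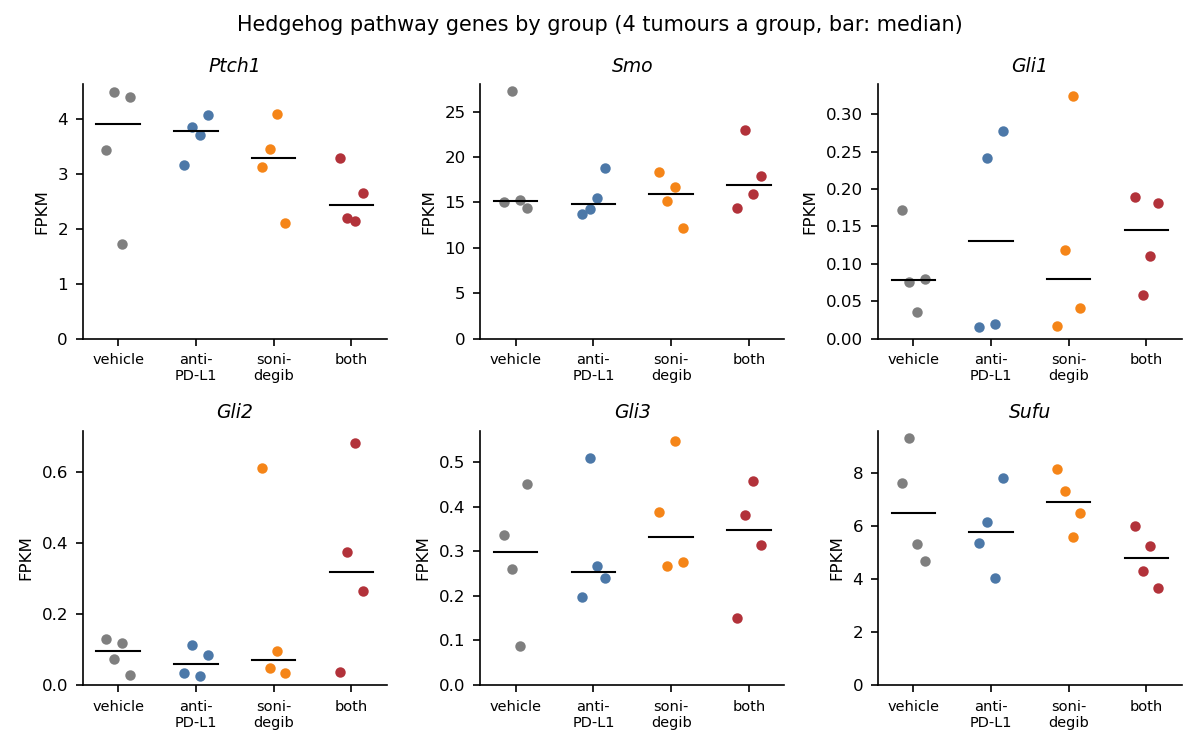
FPKM of 6 Hedgehog pathway genes in each tumour (points), by treatment group, with group medians as bars and axes from 0. The groups with and without sonidegib overlap for all 6, and Gli1, Gli2 and Gli3 stay below 1 FPKM throughout.

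Chemokines held the 1 call among the immune lists. Of 18 chemokine genes tested, 1 was called (Ccl8), 8 were higher and 1 lower at an unadjusted p under 0.05 (16% and 3.05% among all genes), and the list's median of 0.31 exceeded that of all genes by 0.163. The monocyte-attracting Ccl6 was at 2.48 to 7.32 FPKM (median 4.86) without and 2.64 to 19.9 (median 10.2) with sonidegib (log2 difference 1.09, adjusted p = 0.129). Ccl12 (0.98), Ccl7 (0.71) and Ccl11, the eosinophil chemokine eotaxin (0.56), also had positive differences with adjusted p of 0.129 to 0.159. The interferon-induced T cell chemokine Cxcl9 was at 21.2, 20.3 and 12.6 FPKM in combination 2 to 4 and at 0.536 in combination 1. The other 12 libraries were at 0.445 to 4.76 (log2 difference 1.16, adjusted p = 0.219).

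Of 20 macrophage and monocyte genes, 0 were called, with 7 higher and 1 lower at an unadjusted p under 0.05 (16% and 3.05% among all genes). The mannose receptor Mrc1 was at 0.915 to 4.39 FPKM (median 1.43) and 1.89 to 5.25 (median 3.59; log2 difference 0.83, limma adjusted p = 0.108). Monocyte genes Ccr2 (1.02), Lyz2 (0.93) and Fcgr3 (0.64) were at adjusted p of 0.121 to 0.158. The pan-macrophage genes Csf1r (-0.16), Cd68 (0.13) and Adgre1 (0.38) did not share this size. The summed level of the 20 genes was 465 to 880 FPKM (median 663) without sonidegib and 618 to 1213 (median 767) with it. The part of macrophage content in the rises of Ccl8, Alox5ap and Ly6c1 was not tested. Ly6c1 also stands in the endothelial list, whose defining markers Pecam1 (0.23), Cdh5 (-0.11) and Kdr (-0.04) had adjusted p of 0.470 to 0.900. Of the 12 genes of this list tested, 4 had positive and 8 negative differences. Below the filter, endothelial genes went both ways. Mean Erg was 0.475 FPKM without and 0.894 with sonidegib (exact permutation p = 0.00163). Mean Robo4 was 0.748 and 0.549 (p = 0.00286 by the same exact test), and adjusted p was 0.382 for both.

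T cell genes were near the limit of the assay. Of 23 listed, 6 were tested, 0 called and 4 higher at an unadjusted p under 0.05 (16% among all genes). The receptor chains Trbc2 (0.86) and Cd3g (0.65) led these 4. The list summed to 3.90 to 15.7 FPKM without sonidegib, to 6.57 to 14.5 with sonidegib alone, and to 5.96, 32.9, 34.1 and 36.7 in combination 1 to 4. Only 3 combination tumours thus exceeded the range without sonidegib. The cytotoxic and natural killer list summed to 6.93, 22.2, 30.5 and 28.2 in the same 4 tumours, against 2.50 to 11.4 without sonidegib. Granzyme B (Gzmb), the cytotoxic protease, had medians of 0.433 and 1.13 FPKM (log2 difference 0.46, limma adjusted p = 0.167), and Ccl5 1.98 and 4.26 (0.81, adjusted p = 0.117). Cd8a was at 0.454 ± 0.286 and 0.923 ± 0.773 FPKM (SD, n = 8 each; exact permutation p = 0.0755), and Pdcd1 at 0.377 ± 0.194 and 0.667 ± 0.413 (p = 0.0755 by the same exact test). Cd274, which encodes PD-L1, was at 0.535 ± 0.148 and 0.865 ± 0.574 (exact permutation p = 0.115, n = 8 each). None of the 7438 genes below the filter passed an adjusted p of 0.05 in the exact permutation test, while 696 (9.36%) had an unadjusted p under 0.05, 537 higher and 159 lower. The lowest adjusted p was 0.337.

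Of 29 genes of antigen presentation and the interferon-gamma response, 27 had positive differences (69% among all genes). At an unadjusted p under 0.05, 9 were higher (16% among all genes), and 0 were called by limma. Their median, relative to all genes, was -0.12 in the arm without antibody and 0.70 in the arm with it. Tested as an interaction, the difference between the arms had an unadjusted p under 0.05 in 0 of the 29 (9.88% among all genes). The MHC class II gene H2-Aa was at 189, 124 and 154 FPKM in combination 2 to 4 and 22.1 in combination 1, and at 6.99 to 59.3 in the other 12 libraries. The 25 genes of the type I interferon response had a median that differed from that of all genes by -0.025. At an unadjusted p under 0.05, 4 were higher (16%, as among all genes) and 0 lower, and 0 were called.

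Among 27 fibroblast and matrix genes, 12 were higher and 0 lower at an unadjusted p under 0.05 (16% and 3.05% among all genes). Limma called 0 of them, and their median exceeded that of all genes by 0.283. Decorin (Dcn), a small proteoglycan of the matrix, was at 1.67 to 34.7 FPKM (median 6.58) without and 5.64 to 69.2 (median 22.5) with sonidegib (log2 difference 1.69, SE 0.37, adjusted p = 0.117). Lumican (Lum, 1.37), periostin (Postn, 1.48), Timp1 (0.91), Mmp2 (0.63) and the fibroblast receptor Pdgfra (0.59) were at adjusted p of 0.144 to 0.168. Collagen I, the main fibrillar collagen, did not share the direction, with medians of 38.7 and 31.9 FPKM for Col1a1 (-0.26, adjusted p = 0.456). The list summed to 358 to 727 FPKM without and 481 to 875 with sonidegib.

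Genes of protein synthesis, protein breakdown and respiration had nearly all positive differences. Among all genes, 69% had positive differences and 16% were higher at an unadjusted p under 0.05. Of 38 cytosolic ribosomal protein genes, 37 had positive differences and 20 were higher at an unadjusted p under 0.05, while 0 were called by limma. Their median of 0.60 exceeded that of all genes by 0.449. Relative to all genes it was 0.689 in the arm without antibody and 0.279 in the arm with it. At an unadjusted p under 0.05, 3 of the 38 had a negative interaction with the antibody, and 18 after quantile normalization (9.4% and 4.48% among all genes). The list summed to 10183 and 7524 FPKM in vehicle 2 and 3 and to 16216 to 33706 in the others. Rpl30 was at 40 to 175 FPKM without sonidegib and 185 to 525 with it, with no overlap (log2 difference 1.09, adjusted p = 0.151). All 31 proteasome genes were positive, with 12 at an unadjusted p under 0.05 and a median 0.277 above all genes. Of 39 nuclear genes of the respiratory chain, 37 were positive and 18 at an unadjusted p under 0.05. All 13 mitochondrially encoded genes were positive, with 7 at an unadjusted p under 0.05 and a median of 0.69. These 13 genes summed to 3552 to 18642 FPKM (median 11621) without sonidegib and 9435 to 41949 (median 13386) with it, and only combination 2 and 4 exceeded the range without sonidegib. Relative to the median of all genes, the proteasome list was at 0.374 without and 0.204 with antibody. The nuclear respiratory chain was at 0.347 and 0.167, and the mitochondrially encoded list at 0.238 and 0.847. By the same measure all 4 lists were positive in both arms and under both scalings. They were also positive with the GC trend removed and with GC and length trends removed. In the last of these fits the mitochondrially encoded list was at 0.263, against 0.546 in the main fit. Its genes had a median GC content of 37.1% and a median length of 784 bases. Genes higher with sonidegib were also shorter than all genes (above), and pseudogenes made up 12.3% of those at an unadjusted p under 0.05, against 7.63% of all.

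Lists with medians below that of all genes included hypoxia and glycolysis, immediate early response, Wnt and Notch signalling, skeletal muscle (-0.545 relative to all genes, 15 of 16 tested members negative) and the Hedgehog targets given above. Of 29 hypoxia and glycolysis genes, 4 had positive differences (69% among all genes) and 0 were called. At an unadjusted p under 0.05, 4 were lower and 1 higher (3.05% and 16% among all genes). Their median of -0.40 differed from that of all genes by -0.544. The glucose transporter Slc2a1 (GLUT1) was at 70.7, 93.2, 54 and 54.5 FPKM with vehicle and at 46.9, 36.3, 55.1 and 35.5 with anti-PD-L1. It was at 18.3, 70.2, 43.6 and 21.7 with sonidegib and at 58.5, 7.73, 9.01 and 13 with the combination. Combination 2 to 4 and sonidegib 1 and 4 lay below all 8 tumours without the drug, and sonidegib 2, sonidegib 3 and combination 1 stood among them (log2 difference -1.19, SE 0.34, limma adjusted p = 0.151). The oxygen sensor Egln3 (-0.67, adjusted p = 0.172) and the adenylate kinase Ak4 (-0.80, 0.194) had most of their difference in the arm with antibody (-1.29 and -1.44, against -0.06 and -0.16), with interaction adjusted p of 0.485 for both.

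Of 20 immediate early genes, 2 had positive differences and 0 were called. At an unadjusted p under 0.05, 3 were lower, namely Fosb (-0.94), Ier3 (-0.95) and Fos (-0.67). Among all genes, 69% had positive differences, and 3.05% were lower and 16% higher at that level. Of 18 Wnt and Notch genes, 5 were lower and 2 higher at that level. The lower ones were Notch1 with the related receptors Notch2 (-0.31), Notch3 (-0.69) and Notch4 (-0.42) and the ligand gene Dll1 (-0.57), at adjusted p of 0.131 to 0.256, and 0 of the 18 were called. The higher ones were Tcf7 (0.40), a Wnt-responsive factor of T cells, and the ligand gene Jag1 (0.65). The luminal and milk list, with 3 of 19 lower and 0 higher, had a median that differed from that of all genes by -0.25.

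**Figure D3:**
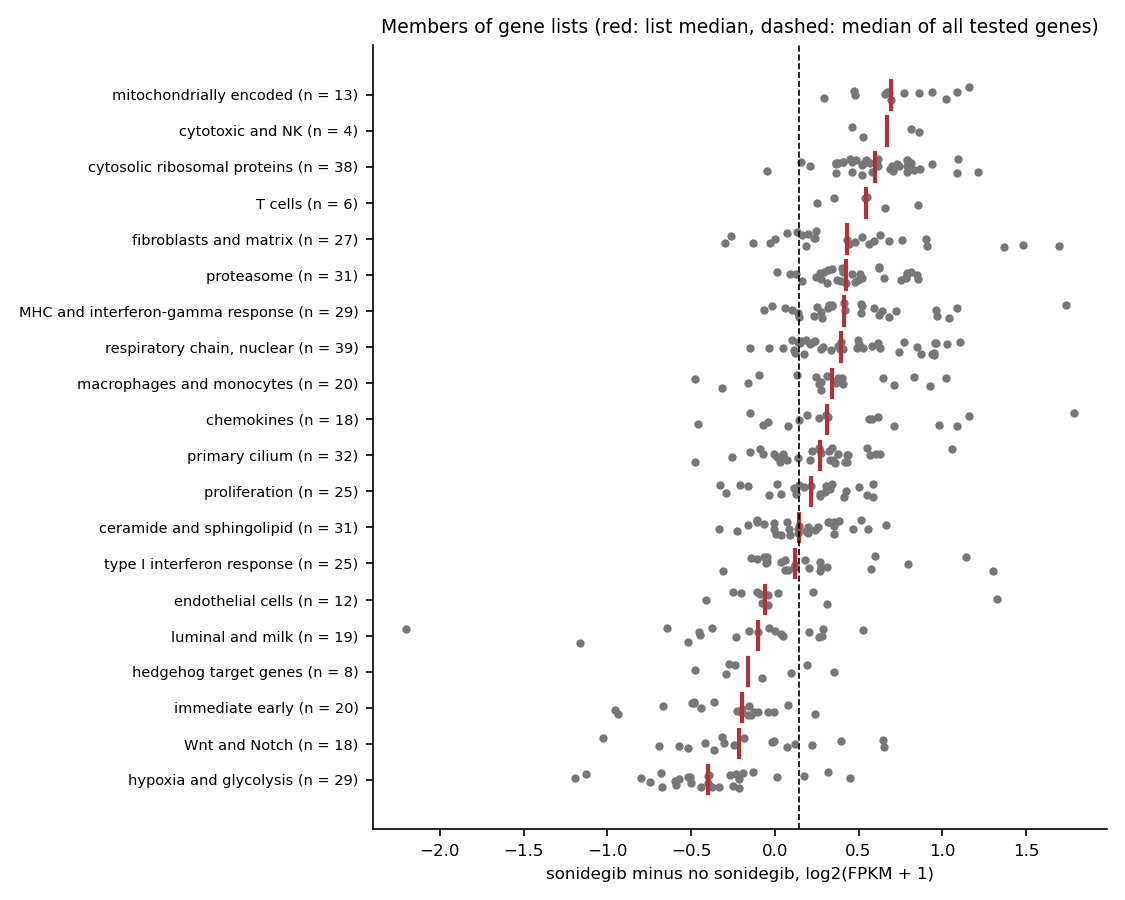
Log2 difference of each tested member (grey points) of 20 gene lists between the 8 tumours with and the 8 without sonidegib, with the list median in red and the median of all tested genes (0.147) dashed. Ribosomal, proteasome and mitochondrial members lie mostly to the right of the dashed line and hypoxia and glycolysis members to the left.

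Among 25 p53 target genes, Dram1 was called, and 6 in all were higher (24%, against 16% among all genes) and 0 lower at an unadjusted p under 0.05. The death receptor gene Fas (0.81), Trp53inp1 (1.10) and Ccng1 (0.92) were at adjusted p of 0.159 to 0.175, while the cell cycle inhibitor Cdkn1a was at 0.09 (adjusted p = 0.895). The list's median differed from that of all genes by -0.016. Of 32 genes of the primary cilium, the organelle in which Smo acts, 7 were higher at an unadjusted p under 0.05 and 0 were called. That is 21.9%, near the 16% among all genes. The transport gene Ift20 led these 7, with medians of 19.2 and 40.8 FPKM (log2 difference 1.06, adjusted p = 0.129). Of 31 ceramide and sphingolipid genes, 4 were higher at that level (12.9%, below the share among all genes) and 0 called. Their median differed from that of all genes by -0.005. Sptssa, a subunit of serine palmitoyltransferase, had medians of 16.8 and 19.8 FPKM (0.66, adjusted p = 0.188), and the ceramide synthase Cers6 of 2.42 and 2.89 (0.19, adjusted p = 0.597). Cers4 was at 0.336 ± 0.0749 and 1.07 ± 1.3 FPKM (SD, n = 8 each; exact permutation p = 0.0118, adjusted p = 0.417), with sonidegib 1 alone at 4.22.

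The effect of sonidegib was then taken apart by antibody arm. Sonidegib against vehicle and combination against anti-PD-L1 share no tumour. Without antibody the median gene was 0.331 higher with sonidegib, with 2938 genes at an unadjusted p under 0.05, 2804 higher and 134 lower. The vehicle side of this arm holds the libraries with the highest GC slopes (above), and their part in these counts was not tested. With antibody the median was -0.047, with 1372 genes, 596 higher and 776 lower. Limma called 3 genes in the first arm, Rgs2 and Gm16550 among them, and AY036118 in the second. Spearman's rho of the log2 differences between the arms was 0.381 over 15105 genes, and 0.340 after removal of GC trends. Genes are not independent replicates, so this is a description.

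Of the 200 genes with the lowest p without antibody, 196 were higher there, and 176 of these (89.8%) were also higher with antibody, against 49.1% of all genes higher in the first arm. Of the 200 with the lowest p in the arm with antibody, 107 were higher there, and 93 of these (86.9%) were also higher in the other arm, against 87.3% of all genes higher with antibody. The remaining 93 were lower there, and 36 of these (38.7%) were also lower in the other arm, against 29.6% of all genes lower with antibody. In the same direction and with an unadjusted p under 0.05 in the other arm were 44 (22%) and 43 (21.5%) of the 200, against 5.80% and 13.9% of all genes.

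**Figure D4:**
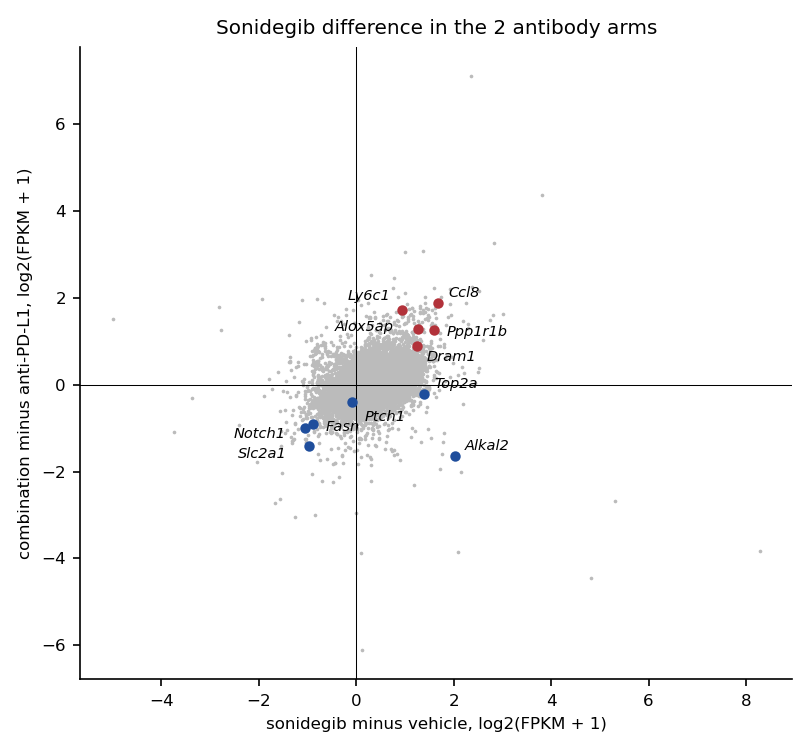
Log2 difference with sonidegib without antibody (x axis) and with antibody (y axis), each point a tested gene (AY036118, at 8.02 and 11.35, is not drawn). Red points are called genes, which lie in the upper right, blue points are other named genes, and Alkal2 lies at 2.02 and -1.65.

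The difference between the arms itself was tested as an interaction, and 1 gene of 15105 (0.00662%) was called. Alkal2, a ligand of the ALK receptor, was at 3.52, 0.419, 2.56 and 0.331 FPKM with vehicle and at 4.53, 5.86, 4.04 and 16.3 with anti-PD-L1. It was at 9.92, 8.44, 5.71 and 11 with sonidegib and at 1.29, 1.69, 1.19 and 1.51 with the combination. Either agent alone thus went with higher values than vehicle in all 4 tumours, and both together with values inside the vehicle range. Sonidegib differed from vehicle by 2.02 and the combination from anti-PD-L1 by -1.65, an interaction of -3.68 (SE 0.56; limma, adjusted p = 0.0490), and the main difference over both arms was 0.19. The interaction fit called 0 genes in 9 of 11 other settings and without each of 12 of the 16 tumours, so this call rests on the set of tumours and the settings.

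At an unadjusted p under 0.05, 1492 genes (9.88%) had an interaction, 1420 negative (9.4%) and 72 positive (0.477%). Without vehicle 3 there were 737 negative ones (4.88%), after quantile normalization 676 (4.48%), and with the GC trend removed 1948. Proliferation genes were prominent among them. Of 25 tested, 18 had a negative interaction at this level, and 0 were called by limma. The count was 13 without vehicle 3, 13 after quantile normalization and 20 with the GC trend removed. The topoisomerase gene Top2a was at 10.9, 6.46, 3.57 and 26.1 FPKM with vehicle and at 41.3, 17, 27.6 and 23.3 with sonidegib. It was at 22.7, 28.3, 18.7 and 27.2 with anti-PD-L1 and at 11.8, 27.2, 20.2 and 25.7 with the combination. The log2 differences were 1.40 without and -0.23 with antibody (interaction adjusted p = 0.485), and those of Mki67 were 0.99 and -0.39. Vehicle tumours 1 to 3 held the 3 lowest Top2a values.

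A single library decided how many genes passed. Without combination 1, limma called 1478 genes, 1300 higher (8.61%) and 178 lower (1.18%), against 6 with all 16 tumours. Without sonidegib 2 there were 24, without vehicle 1 there were 8, without anti-PD-L1 2 there were 7, and without vehicle 2, vehicle 4 or anti-PD-L1 4 there were 3. Without each of the other 9 libraries AY036118 alone remained. All 12 rises and all 12 lower genes named above passed without combination 1, with Fasn at -1.03 (adjusted p = 0.00651), Notch1 at -1.12 (0.0156), Batf at 1.09 (0.00438) and Rarres2 at 1.45 (0.00935). Among the lists, 9 of 29 antigen presentation genes, 7 of 18 chemokines, 4 of 6 T cell genes, 10 of 39 respiratory chain genes, 7 of 38 ribosomal protein genes and 6 of 25 p53 targets were called higher without it, and 2 of 29 hypoxia and glycolysis genes lower. Ptch1 (-0.27, adjusted p = 0.304) and Smo (0.03, 0.920) were not called without it either. This tumour was singled out after its influence had been seen, so these counts describe it and do not replace the comparison of all 16.

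Combination 1 had a GC slope of 2.13, against -3.24, -2.81 and -3.87 in combination 2 to 4, and sonidegib 2, the other library of high influence, had 2.72 against -2.10 to 0.336 in its group. The adipocyte list summed to 194 FPKM in combination 1 and to 28.1 to 62.8 in all others. Its T cell sum of 5.96 FPKM was the lowest of the 8 tumours with sonidegib. Nothing in the labels sets this tumour apart, and the part of these features in its values was not tested.

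**Figure D5:**
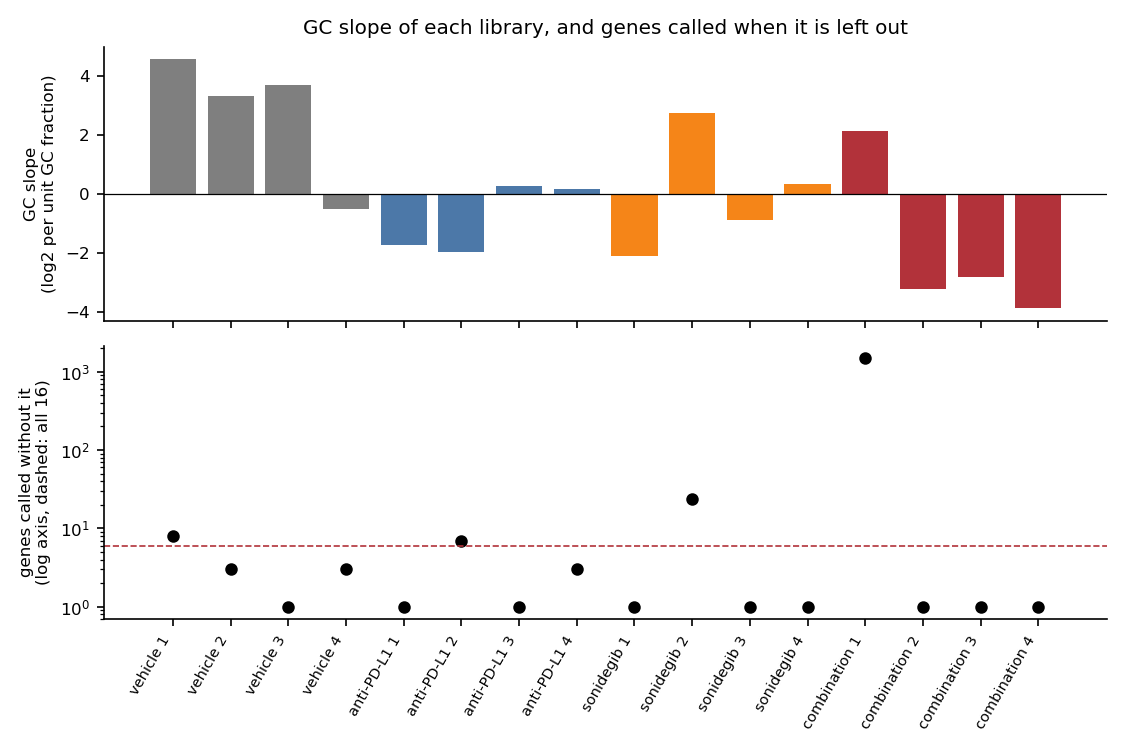
Upper panel, GC slope of each of the 16 libraries (bars, coloured by group); lower panel, number of genes called (log axis) when that library is left out, with the 6 calls of all 16 libraries dashed. Leaving out combination 1 gives 1478 calls and sonidegib 2 gives 24, and both have a positive slope unlike most of their group.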

How the data were processed

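The authors deposited FPKM values for 55146 genes in 16 libraries. Cufflinks and TopHat, with the builds mm10 and GRCm38.p6, are named per the submitters' processing notes, with versions and annotation not given in the sources used here. Such values share fragments among overlapping genes by estimation, and counts of whole fragments were not recovered, so depth was estimated from the FPKM step of 1 fragment and is approximate. Identifiers were matched to GENCODE M21 (53992 with version, 54547 without).

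Values were taken as log2(FPKM + 1), and genes that reached 1 FPKM in 4 or more libraries were fitted with limma 3.58.1 in R 4.3.3, with terms for sonidegib and anti-PD-L1, an intensity trend and robust variances. Tests were two-sided with Benjamini-Hochberg adjustment over 15105 genes at 0.05. Genes under the filter with a mean of at least 0.1 FPKM were compared by an exact permutation of sonidegib within antibody arms (4900 assignments, smallest p 0.000408), adjusted over 7438 genes. Gene lists were described by counts and medians without a set test. Of 887 distinct listed genes, 876 had a value and the others were not analysed here. Named genes are the called genes and, to reach 12 per direction, those with the lowest p, plus fixed Hedgehog, checkpoint and ceramide genes and examples of lists. Some genes that this rule names are not reported here. The comparison divides tumours by treatment label, but it, the named genes and the lists were chosen with earlier results of these data known. The fit was tested on simulated data. Alternatives were other scalings, pseudocounts, filters, models, GC corrections, a replicate block, each antibody arm and leaving out each library.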

Additional observations from a re-analysis of the deposited data

Results flagged for a closer look

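Of 124 groups of 4 libraries examined for 31 named genes, 10 (8.06%) held a library far from the other 3 by Dixon's criterion. For independent, normally spread values the criterion would flag about 1 in 20. The genes share the same 16 libraries and many were chosen by p. The share therefore cannot tell whether the flags exceed chance. Sonidegib 2 was low for Ccl8 (6.77 FPKM against 27.5 to 34.6) and Batf (0.553 against 2.61 to 2.84). Combination 1 was low for Alox5ap (7.28 against 12.8 to 13.8) and Batf (0.742 against 1.94 to 2.27), and high for Plxnb1 (15.2 against 6.67 to 7.66) and Ulk3 (6.85 against 3.71 to 3.78). Sonidegib 3 was low for Rpl30-ps9 (6.51 against 9.75 to 10.1). Vehicle 4 was high for Itga2 (6.62 against 1.49 to 1.83), vehicle 2 for Smo (27.3 against 14.4 to 15.3) and vehicle 3 for AY036118 (215 against values below 0.001). The difference with sonidegib was not the same in the arms without and with antibody for Alkal2 (interaction -3.68, adjusted p = 0.0490 by limma).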

How the results depend on the processing

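Against 6 called genes, quantile normalization left 1, median-of-ratios scaling 1 and a pseudocount of 0.1 left 4. The count was 2 without a filter, 3 with a mean of at least 1 FPKM, 2 without the anti-PD-L1 term, 2 without trend and robust variances, 2 with the replicate block, 12 with the GC trend removed, 3 with GC and length trends removed, 0 with the GC slope as a covariate, 15 with the replicate block and the GC trend removed together, 3 in the arm without antibody and 1 in the arm with antibody. It was 5 with 1 mean per group. Leaving out each library gave 1 to 1478. AY036118 was called in all of these except the GC slope fit and the arm without antibody. Same-numbered libraries did not deviate together (mean correlation -0.0557 over 24 pairs, against 0.0176 over 72 pairs of different numbers, and 3 of 16 libraries correlated best with their own number), so the block, which left AY036118 and added Wfdc17, pairs nothing known. The interaction count of 1 became 0 without a filter, with either scaling, a pseudocount of 0.1, a mean of at least 1 FPKM, no trend, the replicate block, the GC slope covariate and the block with the GC trend removed, and was 0 to 5 without each library.

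Some small differences changed sign. Smo, at 0.01, was -0.16 (quantile), -0.18 (median-of-ratios), -0.012 with the GC slope as a covariate and -0.16 in the arm without antibody, and -0.064 to 0.114 without each library. Alkal2, at 0.19, was -0.0061 (quantile), -1.65 in the arm with antibody and -0.082 to 0.51 without each library. Cers6 was -0.00081 in the arm with antibody. The FPKM differences without each library were -0.0182 to 0.0383 for Gli1, -0.0610 to 0.0882 for Nkx2-1 and -0.116 to 0.170 for Scube3, which was at 0.0291 on the log2 scale. The cause was not tested.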

Other observations

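Skeletal muscle genes varied widely between tumours. The 16 listed genes summed to 5.41 to 1001 FPKM without sonidegib and 8.73 to 537 with it, and creatine kinase (Ckm) ranged from 0.0326 to 84.7 FPKM. Of these genes 0 were called by limma and 0 had an unadjusted p under 0.05. The list's median relative to all genes was -0.545 over both arms, 0.134 in the arm without antibody and -1.19 in the arm with it. At an unadjusted p under 0.05, 0 of these genes had an interaction. The median itself, -0.398 with all 16 libraries, ran from -0.908 to 0.197 without each library, so its sign depended on single tumours.

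Of 28 DNA replication genes, 8 were higher and 0 lower with sonidegib at an unadjusted p under 0.05, and 0 were called. At that level 10 had a negative interaction with the antibody (9.4% among all genes). The count was 6 without vehicle 3, 4 after quantile normalization and 14 with the GC trend removed. Of 20 heat shock genes, 4 were higher (20%) and 1 lower at an unadjusted p under 0.05, and of 30 autophagy genes 5 (16.7%) and 0. Among all genes 16% were higher and 3.05% lower, so both lists were near that share of higher genes. In either list 0 were called.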
